A study of Mus musculus with 8 samples.

Results

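Integrin chains, the adhesion molecules they work with and the adaptors that connect them to actin were examined in mouse bone marrow-derived dendritic cells (BMDC). The set was a list of 34 gene symbols, and all 34 were found among the 55487 gene identifiers of the deposited count table. BMDC were grown for 10 days with 20 ng/ml GM-CSF from bone marrow of WT female C57BL/6J mice of 6 to 8 weeks. The study compared 4 libraries of untreated BMDC with 4 libraries of BMDC-fer, which are BMDC stained with CellTraceViolet, co-cultured for 4 h with ferroptotic Jurkat cells and sorted for carrying that cargo. Jurkat is a human T-cell leukemia line, here killed with 0.5 µM of the GPX4 inhibitor ML162 over 14 h. Whether the untreated BMDC were also stained and sorted is not given in the sources used here. Every difference below may therefore hold staining and sorting besides co-culture and uptake, whose contributions cannot be told apart. By the study's methods such cultures are mostly, but not wholly, CD11c-positive, and the labels do not say whether replicates came from separate animals or cultures. The p-values given here measure the spread between these libraries only.

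An integrin is a membrane receptor made of 1 alpha and 1 beta chain, and the pairing decides which ligand is bound. Leukocytes carry β2 integrins, which bind ICAM molecules, complement fragments and fibrinogen, together with α4 and β7 chains that guide cells to tissues and β1 and αv chains that bind matrix. Talins and kindlins bind the tail of the beta chain and switch the receptor to its active form, and vinculin and paxillin join the complex that then holds on to actin. Dendritic cells are known to move through tissue even without integrins, and they present ICAM-1 to the LFA-1 of T cells.

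Total counts were between 39326672 and 50532209 per library. Values are CPM (counts divided by the TMM-scaled library total, on the usual scale), and a floor of 3 counts corresponded to between 0.0607 and 0.0785 CPM, a limit of counting error alone, given that no molecular identifiers tell PCR copies apart. Levels of different genes were compared per kilobase of merged exons. In both groups replicates 1 and 2 (the first pair) stood apart from replicates 3 and 4 (the second pair). For part of the genes, log2 fold changes fitted within each pair are given beside the pooled ones. The labels do not say that a BMDC and a BMDC-fer library of one number belong together. Correlations between the libraries, given in the processing section, do not single out the numbers either. Markers chosen for the dendritic cell label were present, with all 12 genes, Itgax among them, tested. Their summed level lay between 7938 and 18004 CPM in BMDC and between 3486 and 8717 in BMDC-fer. Of the 12, 5 fell (Flt3, Cd86, Ccr7, Irf4 and Dpp4) and none rose by the edgeR test described below, which called 5.91% of all genes as falling. With the replicate number as a block 10 fell, where 8.13% of all genes did, and by DESeq2 7 fell, where 8.40% did. The median log2 fold change of the 12 was -1.54. Mouse T-cell genes that could take up reads from human Jurkat RNA (Cd3d, Cd3e, Trac, Trbc1, Trbc2 and Bcl11b) summed to between 0.189 and 0.415 CPM in BMDC and to between 0 and 0.182 in BMDC-fer. With 10 further genes that Jurkat cells or other T cells use, the 16 summed to between 41.4 and 47.7 CPM in BMDC and to between 36.0 and 57.3 in BMDC-fer, of which Cd28 alone held between 27.5 and 53.0. Of these 16, 5 were tested, and 2 fell (Lck and Tcf7), 3 with the block and 4 by DESeq2, while none rose.

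Among the 34 genes, 1 rose and 5 fell in BMDC-fer. Itga5, the alpha chain of the fibronectin receptor, was the gene that rose. The genes that fell were Itgb7 and Itgae, which encode both chains of the E-cadherin receptor, Itga2b, the alpha chain of the fibrinogen receptor of platelets, Pecam1, a homophilic immunoglobulin-type adhesion molecule, and Itga3, a laminin receptor chain read at very few counts. No β2 chain, no talin, kindlin, vinculin or paxillin gene and neither Cd44 nor Selplg passed the test. Calls rest on the quasi-likelihood test of edgeR, Benjamini-Hochberg adjusted over 15411 genes, with thresholds of 0.05 for the adjusted p and 0.58 for the size of the log2 fold change. Of the list, 31 genes passed the filter on low counts, while Itga8, Itga9 and Itgb8 did not. The 6 calls were 19.4% of those 31, against 9.38% of all genes tested. By direction, 1 of 31 rose where 3.47% of all genes did, and 5 of 31 fell where 5.91% of all genes did. The median log2 fold change was -0.11 over the 31 genes and 0.001 over all genes tested. Without BMDC-fer replicate 3 or 4 the number that fell was 3. These counts are a description, because Itga3 passed the filter only through its level in BMDC.

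With the replicate number as a block the calls were 7, of which 1 rose and 6 fell, against 13.0% of all genes called, 4.85% rising and 8.13% falling. The added gene was Itga4. Genes tested but not called in this fit that were higher in each BMDC-fer library than in the BMDC library of its number were Itgb2, Itgb5, Icam1, Alcam and Tln1, with edgeR adjusted p under the block of 0.117, 0.12, 0.146, 0.236 and 0.143. Itgad and Selplg were lower in each, at 0.0844 and 0.169. The share of all genes with such agreement by number was not computed, and the labels do not pair the numbers. Agreement by number is therefore a description only, here and for single genes below. DESeq2 likewise called 1 rise and 6 falls, where it called 13.3% of 18167 genes, 4.89% rising and 8.40% falling. Judged only by whether the 4 values of one group all lay beyond the 4 of the other, 1 gene was higher and 6 were lower in BMDC-fer, against 11.3% and 11.6% of all genes tested. The sixth gene on the lower side was Selplg.

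**Figure D1:**
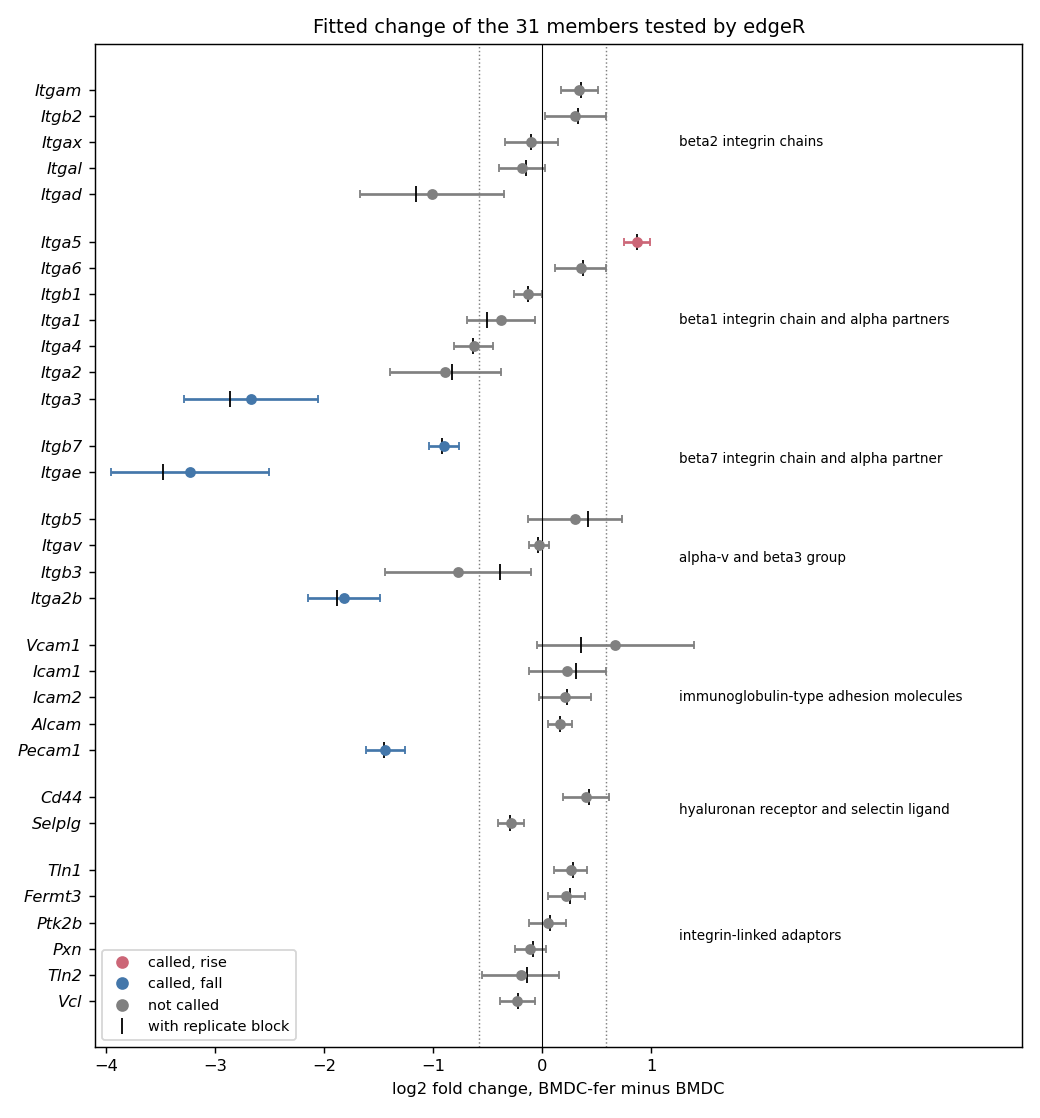
Log2 fold change of BMDC-fer minus BMDC (horizontal axis) for the 31 genes that edgeR tested, grouped by role. Points and bars are the edgeR estimate ± SE from 4 against 4 libraries, ticks are the estimate with the replicate block, and dotted lines mark 0.58 on either side of 0. The adaptors and 4 of the 5 β2 chains lie between -0.23 and 0.34, the low-count β2 chain Itgad lies at -1.01 with a wide bar (SE 0.66), Itga5 at 0.87 is the called gene on the right, and Itgae and Itga3 lie farthest to the left at -3.23 and -2.67.

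Among the β2 chains, Itgb2, Itgax and Itgam were the 3 most abundant genes of the list per kilobase in both groups. The place of Itgam in this order depends on how reads shared with an overlapping gene model were counted, as given below. Itgb2, the beta chain shared by all leukocyte β2 integrins, stood at 1003, 1140, 1999 and 1963 CPM in BMDC replicates 1 to 4 and at 1419, 1499, 2389 and 2185 CPM in BMDC-fer replicates 1 to 4. The groups overlapped, with replicates 3 and 4 above replicates 1 and 2 on both sides, but each BMDC-fer library was above the BMDC library of its number. Its log2 fold change was 0.30 (SE 0.28, edgeR adjusted p = 0.514), with 0.45 in the first pair and 0.22 in the second pair. With the replicate block it was 0.33 (edgeR adjusted p = 0.117), and with the pair as a covariate 0.33 (edgeR adjusted p = 0.046). None of these reached the fold threshold. Per kilobase Itgb2 came first of the 34 genes, at 500.1 ± 173 CPM in BMDC and 613.7 ± 159 in BMDC-fer (SD, n = 4). Itgax (CD11c), the chain by which BMDC are usually recognized, was the next at 231 ± 61.1 CPM per kilobase in BMDC and 215 ± 51.4 in BMDC-fer.

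Itgam (CD11b), which pairs with Itgb2 to form complement receptor 3, was measured at 621, 505, 734 and 774 CPM in BMDC and at 997, 832, 715 and 801 in BMDC-fer. BMDC-fer replicates 1, 2 and 4 were above every BMDC library, whereas replicate 3 fell among them. The log2 fold change was 0.34 (SE 0.17, edgeR adjusted p = 0.206), being 0.71 within the first pair and 0.02 within the second pair. A same-strand gene model, Gm49368, overlaps 68.67% of the exon bases of Itgam. It held 29 to 95 counts per library next to 23958 to 49289 for Itgam. How reads in the shared bases were counted is not given in the sources used here. The few counts of Gm49368 show that such reads were not counted in full for both genes. If they were given to neither gene, the level of Itgam per kilobase and its share below are too low. The order of Itgax and Itgam per kilobase and in the shares is then not settled. Itgal (CD11a), the alpha chain of LFA-1, lay between 59.0 and 114 CPM over all libraries, with a log2 difference of -0.19 (SE 0.21). For Itgax, between 748 and 1407 CPM, the log2 difference was -0.10 (SE 0.24). Neither was called. Itgad (CD11d) was low throughout, at 1.27, 2.61, 3.50 and 6.21 CPM in BMDC and 1.09, 0.71, 0.863 and 4.08 in BMDC-fer. The groups overlapped, but each BMDC-fer library was below the BMDC library of its number. The log2 fold change of -1.01 (SE 0.66, edgeR adjusted p = 0.33) was the largest in size among the β2 chains and was not called. It was -1.16 with the replicate block (edgeR adjusted p = 0.0844), -1.92 without BMDC-fer replicate 4 (adjusted p 0.0838) and -0.55 without BMDC replicate 4 (adjusted p 0.631). Of the 50-base words of Itgad, 22.04% are shared with other genes, mainly Itgax.

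Because all 4 of these alpha chains use the same beta chain, their levels per kilobase were also expressed as shares of their sum. The share of Itgam was 36.6, 36.2, 34.2 and 33.6% in BMDC and 48.9, 50.1, 33.3 and 39.2% in BMDC-fer. Itgax made up 58.1, 59.0, 63.5 and 63.9% in BMDC and 47.8, 47.1, 64.2 and 58.1% in BMDC-fer. Thus the Itgam share was 35.1% ± 1.48 in BMDC and 42.8% ± 8.02 in BMDC-fer (SD, n = 4), the groups overlapped, and the difference was 13.1 percentage points in the first pair and 2.35 points in the second pair. Itgal contributed between 2.10 and 5.16% and Itgad at most 0.300% in any library. These shares refer to transcripts and say nothing of the receptors on the surface. They hold only as counted, since the overlap with Gm49368 may place Itgam too low and Itgax too high.

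**Figure D2:**
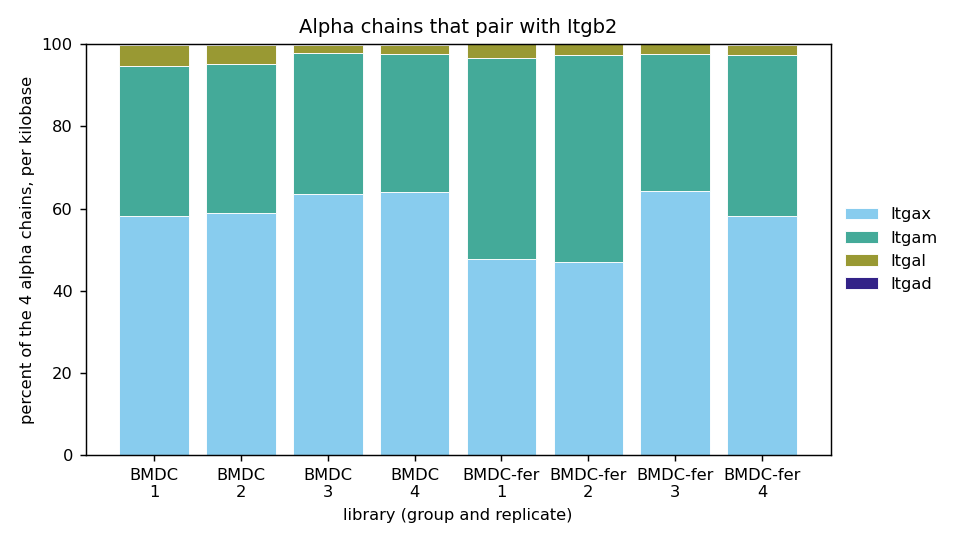
Share of Itgax, Itgam, Itgal and Itgad in the sum of their CPM per kilobase (vertical axis, percent) in each of the 8 libraries (horizontal axis). Itgam takes 48.9 and 50.1% in BMDC-fer replicates 1 and 2 and between 33.3 and 39.2% in the other libraries, and Itgad, at 0.300% or less, is barely visible at the top. The Itgam share may be too low, because the handling of reads shared with Gm49368 is not given.

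Within the β1 group Itga5 rose and Itga3 fell, and the beta chain did not pass the test. Itgb1, which pairs with most matrix-binding alpha chains, was measured at 429, 456, 566 and 550 CPM in BMDC and 452, 494, 456 and 422 in BMDC-fer. The ranges overlapped, and the log2 fold change was -0.13 (SE 0.13, edgeR adjusted p = 0.506), with 0.10 in the first pair and -0.33 in the second pair. Itga5, whose product with Itgb1 forms the α5β1 fibronectin receptor, lies on chr15:103344286-103366763 of GRCm38, minus strand. Its level was 96.2, 88.8, 81.2 and 83.0 CPM in BMDC and 169, 132, 156 and 183 in BMDC-fer. The lowest BMDC-fer library was above the highest BMDC library. Means were 87.3 ± 6.76 and 160 ± 21.6 CPM (SD, n = 4), a 1.83-fold difference, with a log2 fold change of 0.87 (SE 0.12, edgeR adjusted p = 0.00564). Itga5 rose by 0.71 in the first pair and by 1.06 in the second pair, and it was called in every alternative run, with adjusted p between 1.24e-07 and 0.0242.

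Per kilobase, the ratio of Itga5 to Itgb1 was 0.186, 0.161, 0.119 and 0.125 in BMDC and 0.310, 0.222, 0.283 and 0.359 in BMDC-fer. Every BMDC-fer library had the higher ratio, with means of 0.148 ± 0.0315 and 0.293 ± 0.0574 (SD, n = 4).

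Itga4, whose product pairs with Itgb1 to bind VCAM-1 and fibronectin and with Itgb7 to bind MAdCAM-1, was measured at 47.4, 73.9, 58.9 and 58.6 CPM in BMDC and 39.3, 49.8, 34.9 and 30.2 in BMDC-fer. The groups overlapped, since BMDC-fer replicate 2 lay above BMDC replicate 1, but each BMDC-fer library was below the BMDC library of the same number. Without a block the log2 fold change was -0.63 (SE 0.18, edgeR adjusted p = 0.0582) and was not called. With the replicate block it was -0.64 (edgeR adjusted p = 0.0296) and was called. It was also called by DESeq2 (-0.63, DESeq2 adjusted p = 0.0318) and with the pair as a covariate (-0.65, edgeR adjusted p = 0.0191). Of the 8 fits that left out 1 library, it was called without BMDC-fer replicate 2 (edgeR adjusted p 0.047) and not called in the other 7. Over the alternatives its adjusted p ran from 2.79e-05 to 0.18, and the change was -0.44 in the first pair and -0.84 in the second pair. Antisense Cerkl overlaps 8.04% of the exon bases of Itga4, and the use of strand in counting is not given in the sources used here. The ratio of Itga4 to Itga5 per kilobase went from 0.243 ± 0.05 in BMDC to 0.0880 ± 0.0317 in BMDC-fer (SD, n = 4), with no overlap between the groups.

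Itga3, a laminin receptor chain better known from epithelia, had 33, 16, 22 and 13 counts in BMDC and 9, 1, 2 and 1 counts in BMDC-fer. In BMDC-fer, 3 of the 4 libraries were thus under the floor of 3 counts. The groups did not overlap, and the log2 fold change was -2.67 (SE 0.61, edgeR adjusted p = 0.0279). The call was lost when any of 5 of the 8 libraries was left out, namely BMDC replicates 1 and 3 (adjusted p 0.0552 and 0.0615) and BMDC-fer replicates 2, 3 and 4 (adjusted p 0.0728, 0.0756 and 0.0831), and in replicates 1 and 2 alone (adjusted p 0.0695).

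The remaining alpha partners of Itgb1 did not pass the test. Itga6, the other laminin receptor chain, was at 29.5 ± 7.97 CPM in BMDC and 37.7 ± 8.41 in BMDC-fer (SD, n = 4), with overlap. Itga1, a collagen receptor chain, stood at 43.5, 38.1, 36.0 and 43.6 CPM in BMDC and 20.4, 16.4, 47.0 and 39.7 in BMDC-fer. Only BMDC-fer replicates 1 and 2 were below BMDC, so that the log2 fold change was -1.14 in the first pair and 0.14 in the second pair, with -0.38 overall (SE 0.31, edgeR adjusted p = 0.441). Itga2, the other collagen receptor chain, had 4 to 23 counts per library, with a log2 difference of -0.89 (SE 0.51, edgeR adjusted p = 0.272). Itga8 and Itga9 had at most 5 counts in any library, which leaves them near or under the floor.

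The β7 pair fell as a whole. Itgb7, on chr15:102215995-102231944, minus strand, was the fifth most abundant gene of the list per kilobase in BMDC, at 81.2 ± 4.19 CPM (SD, n = 4). It was measured at 214, 235, 234 and 216 CPM in BMDC and at 92.4, 131, 143 and 116 in BMDC-fer. All BMDC-fer libraries were below all BMDC libraries. Means were 225 ± 11.6 and 121 ± 21.9 CPM (SD, n = 4), 1.87-fold apart, and the log2 fold change was -0.90 (SE 0.14, edgeR adjusted p = 0.00769). The fall was -1.0 in the first pair and -0.78 in the second pair, and it was called in every alternative run, with adjusted p between 4.67e-06 and 0.0365.

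Itgae (CD103), the alpha chain that with Itgb7 binds E-cadherin and is used as a marker of migratory cross-presenting dendritic cells, lies on chr11:73090583-73147446, plus strand. Its values were 35.9, 28.1, 16.0 and 8.68 CPM in BMDC and 5.85, 1.59, 0.647 and 1.31 in BMDC-fer. Every BMDC-fer library was below the lowest BMDC library, and BMDC of the second pair were below BMDC of the first. Means of 22.2 ± 12.2 and 2.35 ± 2.37 CPM (SD, n = 4) were 9.37-fold apart, and the log2 fold change was -3.23 (SE 0.72, edgeR adjusted p = 0.0253). It was -3.08 in the first pair and -3.66 in the second pair. The call was lost without BMDC-fer replicate 2, 3 or 4, at adjusted p of 0.0728, 0.0529 and 0.0801. Of the 12 dendritic cell markers above, 5 fell by edgeR in the same comparison, where 5.91% of all genes fell. The other 7 were not called, and Itgax, at -0.10, was among them. Of 10 macrophage markers, 1 fell and 0 rose by edgeR, with a median log2 fold change of 0.48. Their summed level was 2326 to 3436 CPM in BMDC and 2834 to 4470 in BMDC-fer. The part of changed cell makeup in the fall of Itgae was not tested. In bulk RNA, fewer cells of a type and less RNA per cell cannot be told apart.

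Relative to its beta chain, Itgae per kilobase amounted to 0.102, 0.0722, 0.0413 and 0.0243 of Itgb7 in BMDC and 0.0383, 0.00737, 0.00273 and 0.00682 in BMDC-fer. Here the groups overlapped at BMDC replicate 4 and BMDC-fer replicate 1. The ratio of Itga4 to Itgb7 was 0.0524 ± 0.00763 in BMDC and 0.0649 ± 0.0178 in BMDC-fer (SD, n = 4), also with overlap.

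**Figure D3:**
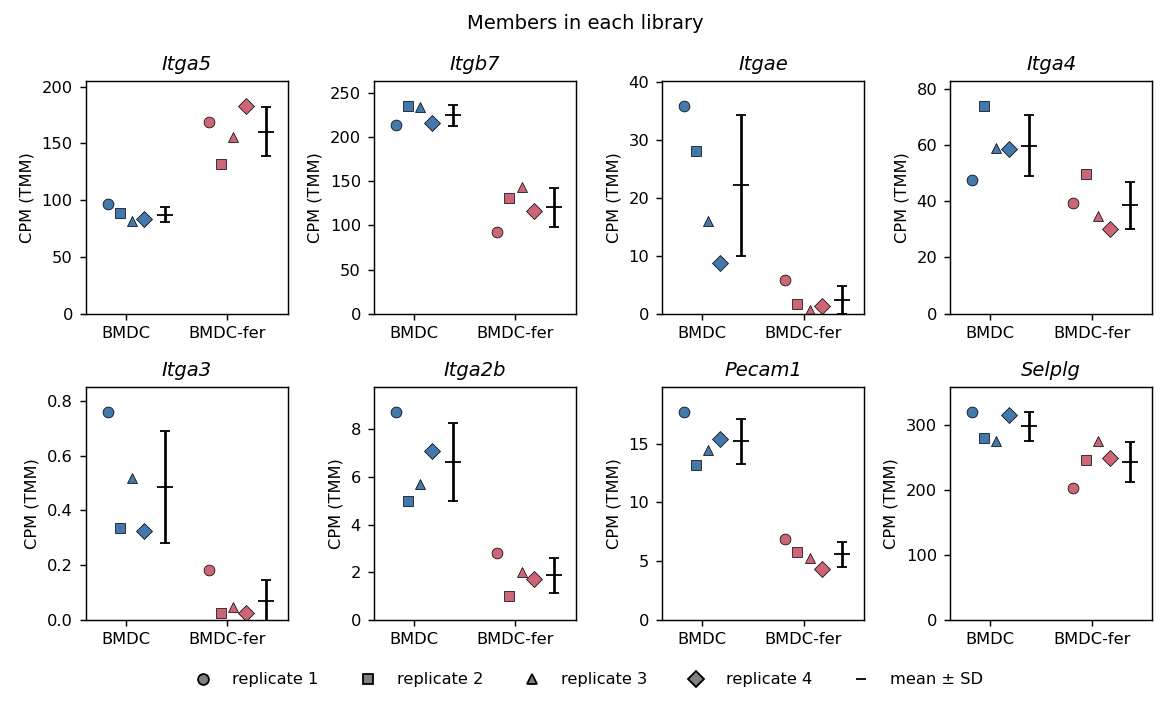
CPM (TMM-scaled, vertical axes starting at 0) of 8 genes in the 4 BMDC and the 4 BMDC-fer libraries. Symbols mark the replicate number and black bars the mean ± SD. Itga5 is the one gene higher in BMDC-fer, at 132 CPM or more against 96.2 CPM or less, the groups are separate for every gene but Itga4, and for Selplg they are separated by 275.4 against 275.1 CPM.

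Upstream sequence is shown for the genes of the β1 and β7 groups that rose, fell or changed their call with the block and that have an entry in the RefSeq promoter table (GRCm38.p6). Each stretch holds 150 bases that end just before the outermost annotated start, 5′ to 3′ on the strand of the gene, with CG dinucleotides in capitals. The windows are chr15:103366792-103366941 (minus) for Itga5, chr15:102231945-102232094 (minus) for Itgb7, chr2:79255276-79255425 (plus) for Itga4 and chr11:95076802-95076951 (minus) for Itga3.
Itga5: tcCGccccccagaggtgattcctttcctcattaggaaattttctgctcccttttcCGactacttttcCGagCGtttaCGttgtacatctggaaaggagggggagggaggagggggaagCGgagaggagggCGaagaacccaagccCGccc
Itgb7: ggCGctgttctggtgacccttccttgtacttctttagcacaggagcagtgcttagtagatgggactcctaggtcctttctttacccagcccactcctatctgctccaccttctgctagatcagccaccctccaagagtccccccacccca
Itga4: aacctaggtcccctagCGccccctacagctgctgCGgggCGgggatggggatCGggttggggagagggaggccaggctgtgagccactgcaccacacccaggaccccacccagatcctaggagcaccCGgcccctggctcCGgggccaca
Itga3: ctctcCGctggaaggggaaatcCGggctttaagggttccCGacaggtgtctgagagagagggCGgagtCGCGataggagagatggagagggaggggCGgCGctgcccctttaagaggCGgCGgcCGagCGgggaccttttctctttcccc
The 4 stretches differ in composition. Itgb7 has 1 CG dinucleotide and 55.3% G and C, Itga5 has 8 and 56.7%, Itga4 has 6 and 70.7%, and Itga3 has 12 and 64.0%. RefSeq entries were found for 21 of the genes, with 22 promoters. In the 250 bases before their starts, searched on both strands, GAGGAAG, the core of sites bound by the myeloid factor PU.1, was present in Alcam, Cd44, Itga2b, Itgam and Itgav, which is 5 of 21 genes, and in 10.6% of all 32851 promoters of the table. The NF-kB site, searched as GGGRNWYYCC in the usual letter code, was in none of the 21 genes and in 3.90% of all promoters. The CArG box bound by serum response factor, searched as CCWWWWWWGG, was in Vcl and in 1.47% of all promoters. Variant sites outside these patterns were not searched. A match is a run of letters and not a measured binding site.

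In the αv and β3 group, Itga2b was the gene that changed. Itgav, the alpha chain that with Itgb3 or Itgb5 binds vitronectin and apoptotic-cell bridging proteins, varied little, at 42.7, 43.6, 44.1 and 47.0 CPM in BMDC and 40.5, 41.6, 46.9 and 44.2 in BMDC-fer. The groups overlapped, with a log2 fold change of -0.03 (SE 0.09, edgeR adjusted p = 0.827). Per kilobase Itgb5 was the most abundant gene of this group, at 38.5 ± 21.1 CPM in BMDC and 47.4 ± 17.0 in BMDC-fer, and Itgb3 was at 1.81 ± 1.52 and 1.06 ± 0.446 (SD, n = 4). Itgb5 was read at 54.6, 92.7, 209 and 190 CPM in BMDC and at 102, 133, 213 and 226 in BMDC-fer, with overlap (log2 fold change 0.30, SE 0.43, edgeR adjusted p = 0.669). Itgb3 stood at 3.30 and 2.63 CPM in BMDC replicates 1 and 2 but at 17.6 and 19.2 CPM in BMDC replicates 3 and 4, and at 5.81, 2.74, 8.75 and 7.70 CPM in BMDC-fer. Its log2 fold change was 0.54 in the first pair and -1.15 in the second pair, and the difference between the pairs was not tested. Itgb8, which activates TGF-β with Itgav, had at most 4 counts in any library.

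Itga2b (CD41) lies on chr11:102453297-102470122, minus strand, and is known from platelets, megakaryocytes, early progenitors and mast cells. It was measured at 8.73, 4.99, 5.72 and 7.11 CPM in BMDC and at 2.79, 1.00, 1.99 and 1.70 in BMDC-fer. All BMDC-fer libraries were below all BMDC libraries. The log2 fold change was -1.82 (SE 0.33, edgeR adjusted p = 0.0124), a 3.54-fold difference of means, with -1.83 in the first pair and -1.78 in the second pair. It was called in every alternative run, with adjusted p up to 0.0481. Of 8 platelet and megakaryocyte markers, 4 stayed under 1 CPM in every library (Gp9 among them) while the chemokine genes Pf4 and Ppbp rose, and the 8 genes summed to between 166 and 209 CPM in BMDC and to between 338 and 645 in BMDC-fer. By edgeR 4 of these markers were tested and 2 rose, 3 rose with the block and 2 by DESeq2. Of all genes 3.47%, 4.85% and 4.89% rose in these fits. The 8 mast cell and basophil markers summed to between 38.1 and 69.0 CPM in BMDC and to between 15.0 and 35.2 in BMDC-fer. Of the 8, 4 were tested by edgeR, with a median log2 fold change of -1.48, and 3 stayed under 1 CPM in every library. By edgeR 0 were called, 1 fell with the block and 4 fell by DESeq2, where 5.91%, 8.13% and 8.40% of all genes fell. The part of either marker list in the fall of Itga2b was not tested.

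Pecam1 (CD31), on chr11:106654217-106750628, minus strand, encodes an adhesion and inhibitory receptor of leukocytes, platelets and endothelium. Its values were 17.7, 13.2, 14.5 and 15.4 CPM in BMDC and 6.88, 5.80, 5.29 and 4.37 in BMDC-fer. The highest BMDC-fer library was well under the lowest BMDC library. Means were 15.2 ± 1.90 and 5.59 ± 1.05 CPM (SD, n = 4), 2.71-fold apart, and the log2 fold change was -1.44 (SE 0.18, edgeR adjusted p = 0.00366), the lowest adjusted p of the list. The fall was -1.27 in the first pair and -1.61 in the second pair, and it was called in every alternative run, with adjusted p up to 0.0169. Of 7 endothelial markers 4 were tested and 0 were called by edgeR, with a median log2 fold change of 0.71. With the block 1 rose and by DESeq2 1 rose, where 4.85% and 4.89% of all genes did. Of the 7, 5 stayed under 1 CPM in every library, and Tek, Cldn5 and Emcn stayed at 3 counts or fewer. The summed level of the 7 was 16.3 to 33.6 CPM in BMDC and 24.8 to 58.8 in BMDC-fer. Of 11 neutrophil markers 5 fell by edgeR, 9 with the block and 9 by DESeq2, with a median log2 fold change of -3.14 and the shares of all genes given above. Their summed level was 53.8 to 276 CPM in BMDC and 21.1 to 59.3 in BMDC-fer. The part of neutrophil RNA in the falls described here was not tested.

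The other immunoglobulin-type molecules did not pass the test. Alcam (CD166), a ligand of CD6 on T cells, was measured at 188, 152, 181 and 180 CPM in BMDC and 206, 178, 207 and 195 in BMDC-fer. The groups overlapped, and its log2 fold change was 0.16 (SE 0.11, edgeR adjusted p = 0.331). Per kilobase Icam1, a ligand of LFA-1 and CR3, came first in this group, at 29.5 ± 14 CPM in BMDC and 34.6 ± 10.3 in BMDC-fer (SD, n = 4). In CPM it stood at 199, 159, 75.5 and 79.9 in BMDC and 204, 173, 112 and 115 in BMDC-fer, so that the replicate pairs differed more than the groups did. The log2 fold change of Icam1 was 0.23 (SE 0.35, edgeR adjusted p = 0.682), with 0.08 in the first pair and 0.56 in the second pair. The opposite-strand gene Gm47079 overlaps 11.72% of its exon bases. Icam2, a further ligand of LFA-1, lay between 3.36 and 6.66 CPM with a log2 difference of 0.21 (SE 0.24). Vcam1, the ligand of α4β1, lay between 0.314 and 2.57 CPM with a log2 difference of 0.67 (SE 0.72), and only BMDC-fer replicates 1 and 2 were above every BMDC library.

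Cd44, the main receptor for hyaluronan, was measured at 289, 312, 482 and 506 CPM in BMDC and 587, 576, 487 and 440 in BMDC-fer. Only BMDC-fer replicates 1 and 2 were above all BMDC libraries, and the log2 fold change was 0.40 (SE 0.21, edgeR adjusted p = 0.238), with 0.96 in the first pair and -0.08 in the second pair. Selplg (PSGL-1), the protein that presents sialylated sugars to P-selectin, stood at 319, 280, 275.4 and 314 CPM in BMDC and 202, 245, 275.1 and 248 in BMDC-fer. Its groups just failed to touch, and the change of -0.29 (SE 0.12, edgeR adjusted p = 0.143) did not reach the fold threshold.

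No gene of the adaptor group passed the test. Tln1, the main talin of blood cells, was the most abundant of the 6 per kilobase, at 72.0 ± 13.4 CPM in BMDC and 86.3 ± 7.02 in BMDC-fer (SD, n = 4). Its values were 766, 862, 608 and 586 CPM in BMDC and 880, 925, 773 and 806 in BMDC-fer. The groups overlapped, although each BMDC-fer library was above the BMDC library of its number, with a log2 fold change of 0.26 (SE 0.15, edgeR adjusted p = 0.282). It was 0.16 in the first pair and 0.42 in the second pair. Fermt3 (kindlin-3), the kindlin of blood cells, was at 297, 351, 217 and 215 CPM in BMDC and 289, 315, 316 and 338 in BMDC-fer. BMDC varied more than BMDC-fer, and the change of 0.22 overall (SE 0.17, edgeR adjusted p = 0.419) compared with -0.10 in the first pair and 0.61 in the second pair. Vcl (vinculin), Pxn (paxillin), the kinase gene Ptk2b (PYK2) and Tln2 had log2 differences between -0.23 and 0.05. Over all libraries Pxn lay between 119 and 169 CPM, Ptk2b between 121 and 196, Vcl between 22.6 and 38.5 and Tln2 between 4.95 and 14.8. Vcl shares 39.19% of its 50-base words with other genes, chiefly the opposite-strand gene Ap3m1, which held 3034 to 5178 counts.

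**Figure D4:**
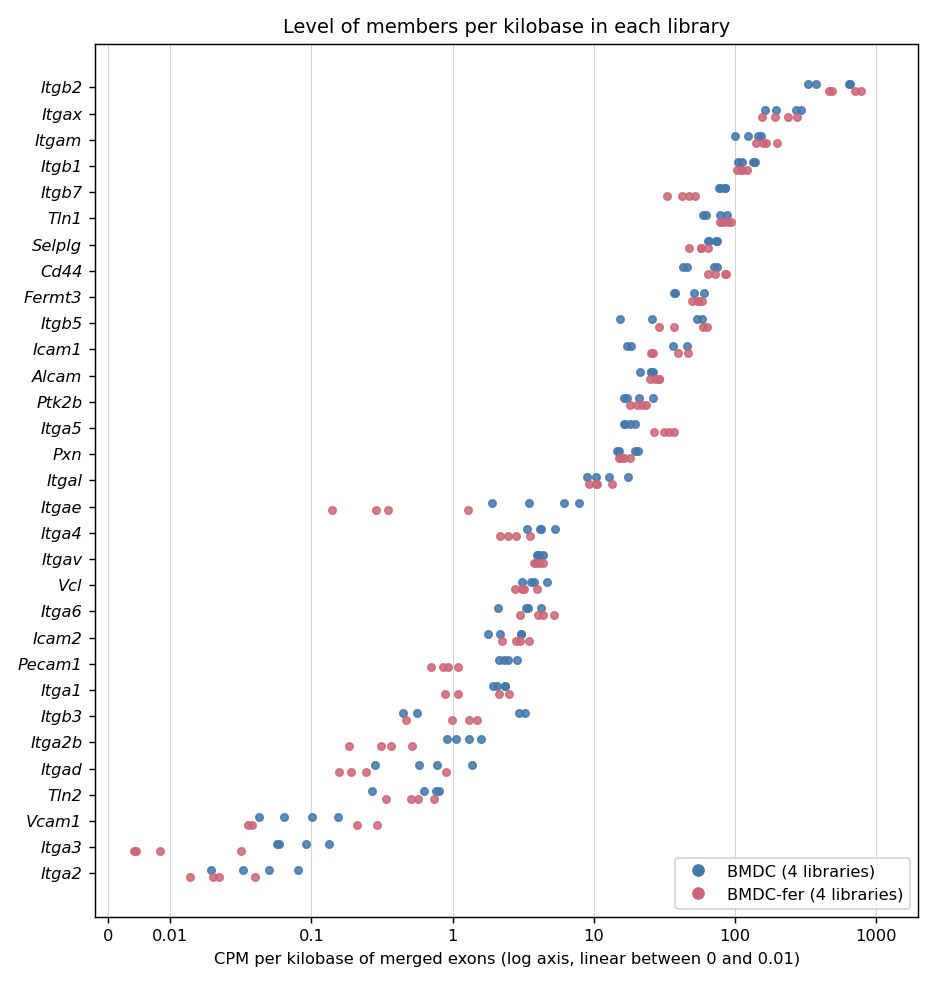
CPM per kilobase of merged exons (horizontal log axis, linear between 0 and 0.01) of the 31 genes with a BMDC mean of at least 0.01, ordered by that mean. Each point is 1 library. Itgb2, Itgax, Itgam, Itgb1 and Itgb7 lead in BMDC, and Itgae is the gene whose 4 BMDC-fer points lie farthest to the left of its BMDC points among genes above 1 CPM per kilobase in BMDC.

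The change was also fitted within each replicate pair. With replicates 1 and 2 alone, 4 genes of the list rose (Itga5, Itgam, Icam2 and Cd44) and 5 fell (Itgb7, Itgae, Itga2b, Pecam1 and Itga1), where 8.16% of all genes rose and 11.3% fell. With replicates 3 and 4 alone, 2 rose (Itga5 and Fermt3) and 8 fell (Itgb7, Itgae, Itga2b, Pecam1, Itga3, Itga4, Itga2 and Itgb3), where 17.7% of all genes rose and 18.0% fell. Itga5, Itgb7, Itgae, Itga2b and Pecam1 were called in both pairs and in the same direction. The other calls were made in 1 pair only, and the difference between the pairs was not tested. Each of these fits compared 2 libraries with 2.

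**Figure D5:**
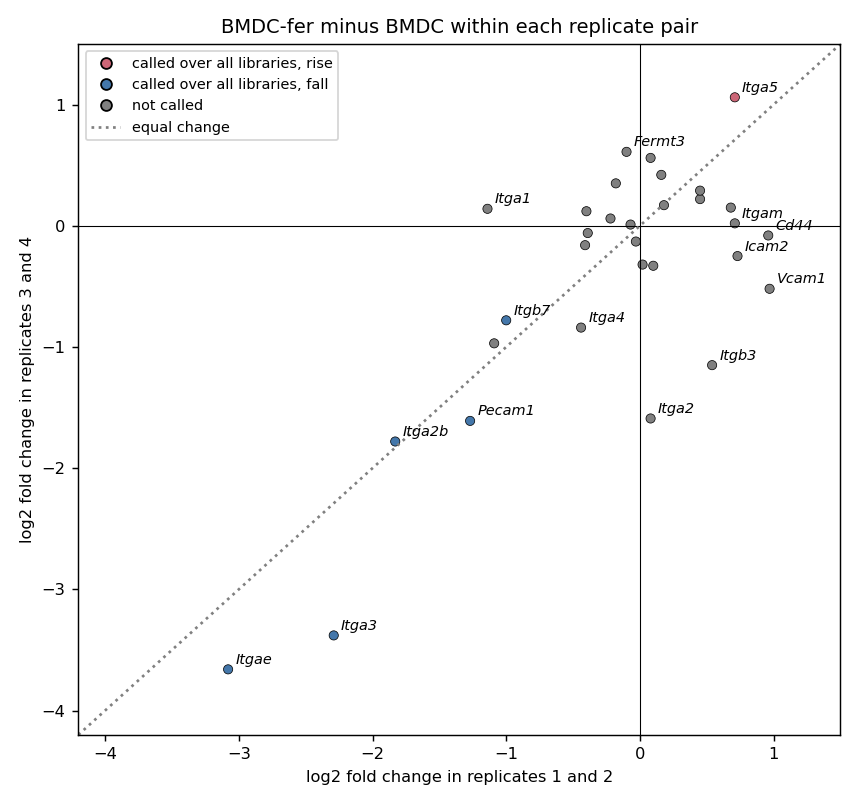
Log2 fold change of BMDC-fer minus BMDC fitted in replicates 1 and 2 (horizontal axis) and in replicates 3 and 4 (vertical axis), 1 point for each of the 31 genes, coloured by the call over all 8 libraries. The 6 called genes have the same sign in both pairs, whereas a number of genes not called do not. Among these are Itga1 (-1.14 and 0.14), Vcam1 (0.97 and -0.52) and Itgb3 (0.54 and -1.15).

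Further adhesion genes were read from lists of other integrin chains, integrin activation and adhesion complexes, selectins with the enzymes that make their ligands, other surface adhesion molecules and extracellular ligands. Of 89 listed genes 71 were tested, and 9 of them (12.7%) were called against the 9.38% of all genes given above, 3 rising and 6 falling. Of all genes tested 3.47% rose and 5.91% fell. The replicate block gave 3 rising and 9 falling, where 4.85% and 8.13% of all genes did. Without BMDC-fer replicate 4 only 2 of the listed genes fell. Genes that rose were Tpst2, which sulfates tyrosines such as those of PSGL-1 (log2 fold change 0.99, SE 0.12, edgeR adjusted p = 0.00366), Parvb, β-parvin of the ILK complex (0.91, SE 0.16, adjusted p = 0.0113), and Cd151, a tetraspanin that associates with laminin-binding integrins (1.15, SE 0.25, adjusted p = 0.0235). Tpst2 went from 24.1, 26.7, 31.3 and 33.1 CPM in BMDC to 53.9, 56.5, 57.9 and 60.3 CPM in BMDC-fer, without overlap. Cd151 was at 42.1 and 42.4 CPM in BMDC-fer replicates 1 and 2 and at 80.8 and 82.9 CPM in BMDC-fer replicates 3 and 4, and its call was lost without BMDC replicate 4 or BMDC-fer replicate 3 or 4 (adjusted p 0.0532, 0.0585 and 0.0651).

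Largest among the falls, for genes with a mean count of 100 or more, were Fyn, a Src-family kinase that acts downstream of integrins (log2 fold change -2.21, SE 0.42, edgeR adjusted p = 0.0147), Nedd9, a docking protein of the Cas family (-1.11, SE 0.18, adjusted p = 0.00822), and St3gal4, a sialyltransferase of selectin ligands (-0.98, SE 0.27, adjusted p = 0.0481). Fyn fell from 62.5, 42.2, 30.8 and 29.5 CPM in BMDC to 15.1, 10.1, 6.47 and 3.95 CPM in BMDC-fer. Nedd9 went from 52.1, 51.1, 74.6 and 79.1 CPM to 28.1, 26.4, 35.2 and 29.5 CPM. Neither gene showed overlap between the groups. The call of St3gal4 was lost in 6 of 8 fits that left out 1 library each, all but those without BMDC replicate 3 or 4, with adjusted p up to 0.136. Named after their values were seen, the other called genes were Rassf5 (RAPL, a Rap1 effector of LFA-1), at -0.71 (SE 0.14), Col4a1, a basement membrane collagen chain, at -0.93 (SE 0.24), and Itgb2l, a β2-like integrin chain, at -3.20 (SE 0.66). Itgb2l was read at 66 to 127 counts in BMDC and 1 to 28 counts in BMDC-fer.

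Scaling by library totals alone in place of TMM shifted the split of calls over all genes from 534 rising and 911 falling to 300 rising and 1179 falling, while the list gave 1 rise and 6 falls, with Itga4 added. The median of all genes moved to -0.09 under that scaling.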

How the data were processed

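RNA of 4 BMDC and 4 BMDC-fer libraries was enriched with oligo(dT), fragmented and sequenced. The authors mapped filtered reads with HISAT2, and the deposited values are raw counts per mouse gene from featureCounts, not normalized. The submitters' processing notes also name CASAVA, DESeq2 and the build mm10, while strand use and the treatment of multimapping reads are not given in the sources used here. Identifiers were matched to GENCODE M21 (GRCm38). All members and lists were chosen with earlier results of these data known.

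Counts were tested in R 4.3.3 with edgeR 4.0.16 (TMM, filterByExpr with a count minimum of 10, quasi-likelihood test, Benjamini-Hochberg over 15411 genes) with thresholds of 0.05 (adjusted p) and 0.58 (size of the log2 fold change). DESeq2 1.42.0, other scalings and filters, the replicate block, each replicate pair alone and each library left out were alternatives. The steps were checked on simulated counts. SE is the absolute log2 fold change divided by the root of F. Values per kilobase use merged exon length. Every member is named, with all 8 values for called genes and for the most abundant gene per kilobase of each role, and, of the other adhesion lists, the 3 largest called rises and falls with a mean count of at least 100 are named. Further values were given after they were seen. One marker gene is not reported here and was left out of its list.

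The BMDC and the BMDC-fer library of one number deviated together from their group means, with r over genes of 0.445, 0.354, 0.313 and 0.342 for numbers 1 to 4, and on that basis the numbers were used as a block in an alternative fit. Libraries of unlike number within a pair (1 with 2, 3 with 4) also had r between 0.186 and 0.379, and those across the pairs between -0.387 and -0.278. The correlations thus follow the split of 1 and 2 from 3 and 4 and do not by themselves single out the numbers. Replicates of a group differed beyond sampling noise, with a chi-square of 9 to 346 per gene.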

Additional observations from a re-analysis of the deposited data

Results flagged for a closer look

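Of 62 groups of 4 libraries examined, where chance gives about 3.1, 2 held a library whose gap to the nearest other library, as a share of the group's range, was above Dixon's 95% critical value for 4 libraries. BMDC-fer replicate 4 stood apart for Itgad, at 4.08 CPM with a gap share of 0.887. BMDC-fer replicate 1 stood apart for Itga3, at 0.182 CPM with a gap share of 0.851.

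For 2 members every library of one replicate pair moved the opposite way from every library of the other. The log2 fold change of Icam2 was 0.73 in the first replicate pair and -0.25 in the second. For Vcam1 it was 0.97 in the first pair and -0.52 in the second. These differences between the pairs were not tested.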

How the results depend on the processing

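For the log2 fold changes of the members, 514 values under an alternative setting kept direction and side of the threshold, 13 passed it newly, 9 lost it and 19 changed sign. The counts of members moved to 4 rising with replicates 1 and 2 alone and to 2 rising and 8 falling with replicates 3 and 4 alone. When each library was left out in turn, between 3 and 5 members fell and 1 rose, the lowest count being without BMDC-fer replicate 3 or 4. With the replicate block, 1 member rose and 6 fell. Apart from Itga4, at -0.64, the block changed no member's call. Of the other adhesion genes, 10 rose and 14 fell in replicates 1 and 2 alone, where 8.16% and 11.3% of all genes did. In replicates 3 and 4 alone 9 rose and 15 fell, where 17.7% and 18.0% of all genes did. By DESeq2 11 fell and with the replicate block 9, where 8.40% and 8.13% of all genes fell. With the replicate pair as a covariate 5 rose and 11 fell. With a library left out between 2 and 5 fell, 2 without BMDC-fer replicate 4. For the covariate and for left-out libraries the share of all genes was not computed. Over all genes, DESeq2 called 889 rising and 1526 falling, against 534 and 911 by edgeR. None of the changes of sign concerned a called member. With replicates 3 and 4 alone the log2 fold change was 0.12 for Itgal, 0.14 for Itga1, 0.01 for Itgav, -0.25 for Icam2, -0.52 for Vcam1, -0.08 for Cd44 and 0.06 for Pxn. With replicates 1 and 2 alone it was 0.10 for Itgb1, 0.08 for Itga2, 0.54 for Itgb3, 0.02 for Tln2, -0.10 for Fermt3 and -0.18 for Ptk2b. Ptk2b was at -0.06 with library totals only. With a library left out, the range was -0.31 to 0.03 for Itgal, -0.24 to 0.03 for Itgax and -0.04 to 0.21 for Ptk2b. The cause was not tested. Depth limits Itga2, Itga3, Itga8, Itga9 and Itgb8, which had at most 33 counts in any library.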
